A study of Homo sapiens with 6 samples.

Results

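The genes described here break down heme and move or store the iron that heme breakdown releases. They were chosen by symbol: HMOX1, HMOX2, BLVRA, BLVRB, FTH1, FTL, NCOA4, TFRC, SLC11A2 and SLC40A1. All 10 were found among the 19386 genes of the deposited table, and all 10 had enough reads to be tested. Their messenger RNA was measured by strand-specific sequencing in AC16 cells, a human line derived from ventricular heart tissue by fusion with virus-transformed fibroblasts, which the labels give as wild-type cardiomyocytes. There were 3 libraries of cells given 26 mM potassium chloride (KCl) for 16 h and 3 libraries of untreated control cells taken at the same time, and the cells were nearly confluent in 6-well plates when KCl was added. KCl depolarizes the cell membrane and is the arresting agent of cardioplegia solutions, and the study's title ties it to NRF2, a transcription factor of antioxidant genes.

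Heme oxygenases open the heme ring and release biliverdin, carbon monoxide and iron, and biliverdin reductases turn biliverdin into bilirubin. Iron enters most cells with transferrin through its receptor, crosses the endosome membrane through a divalent metal transporter, is stored in ferritin shells of heavy and light chains, and leaves through ferroportin. HMOX1, both ferritin chain genes and the ferroportin gene SLC40A1 are known targets of NRF2 and of its competitor BACH1. A second layer of control acts on the messenger RNAs. Iron regulatory proteins bind a hairpin, the iron-responsive element, when iron is scarce. At the 5′ end of a messenger RNA this blocks translation, and at the 3′ end of the transferrin receptor messenger RNA it slows decay.

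After KCl, the transferrin receptor gene TFRC rose 1.55-fold and the ferritin light chain gene FTL 1.19-fold. The metal transporter gene SLC11A2 rose 1.16-fold and the ferritin heavy chain gene FTH1 1.07-fold. The export gene SLC40A1 fell to 0.575 of its control level. The 4 genes of the heme breakdown step itself, HMOX1, HMOX2, BLVRA and BLVRB, and the ferritin receptor gene NCOA4 did not pass the test. Thus 4 of 10 genes were higher and 1 lower at an adjusted p under 0.05 (edgeR quasi-likelihood test, Benjamini-Hochberg adjusted over 13044 genes). Across all genes tested, 38.0% were called, 20.1% higher and 18.0% lower, so 5 of 10 called is near the background and is no result about the 10 genes as a group. The 2 groups of libraries did not overlap for 6 of the 10 genes, against 47.8% of all genes tested. KCl was the higher group for 5 of them (24.5% of all genes) and the lower for 1 (23.3%). Their median log2 fold change was 0.14, against -0.00453 over all genes tested. Of all calls, 52.8% were higher with this scaling. That share was 35.3% with library totals alone, and with limma 41.1% on log2(TPM + 1) and 33.3% on log2(FPKM + 1).

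**Figure D1:**
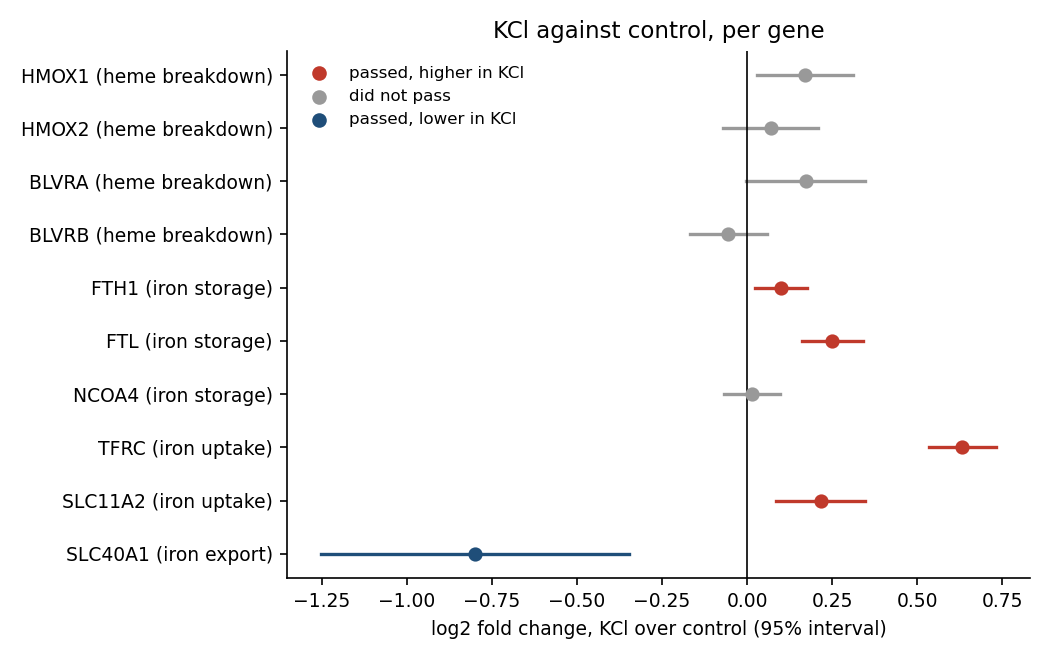
Log2 fold change of each gene in KCl over control, with its 95% interval from the edgeR fit, 3 libraries a group. TFRC at 0.63 lies farthest to the right and SLC40A1 at -0.80 farthest to the left, with the widest interval, and the intervals of HMOX2, BLVRA, BLVRB and NCOA4 reach across 0.

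Library totals were between 18886525 and 19159312 estimated reads in KCl and between 18601977 and 19286588 in control. Nothing in the labels tells separate cultures from repeat libraries of 1 culture. The p-values therefore cover the spread among these 6 libraries, and that spread may be technical. The cardiomyocyte label was not borne out by defining markers: 0 of 12 sarcomere, natriuretic peptide and cardiac transcription factor genes reached a mean of 1 TPM, and TNNT2, MYL7, NPPA and NKX2-5 were listed at 0 in every library. Their summed level was 0.75 to 1.54 TPM in KCl and 0.65 to 2.33 TPM in control. All 8 fibroblast markers were above 1 TPM, with sums of 2870 to 3060 TPM in KCl and 2730 to 2960 TPM in control. Of these, 7 were called higher, against 20.1% of all genes tested. The exception, COL1A1, was the largest part of the sum (1527 TPM in KCl and 1659 TPM in control) and was not called. Of the markers of cells specialized in heme, 0 of 5 erythroid genes reached 1 TPM (sums of 0 to 1.06 TPM in KCl and 0 to 0.62 TPM in control). Of 6 leukocyte and macrophage markers, 2 reached 1 TPM, CD68 and CD14, and the list's sum was 124 to 134 TPM in KCl and 171 to 186 TPM in control. That sum was mostly CD68, which was called lower (124 TPM in KCl and 177 TPM in control), while CD14 was called higher (4.25 TPM in KCl and 2.20 TPM in control). Sums of 5 epithelial markers, mostly the keratin gene KRT18, were 552 to 581 TPM in KCl and 389 to 399 TPM in control. Of the 4 tested, 2 were called higher. These were KRT18 (503 TPM in KCl and 337 TPM in control) and, at a low level, CDH1 (0.97 TPM in KCl and 0.32 TPM in control). Smooth muscle markers summed to 180 to 192 TPM in KCl and 176 to 199 TPM in control. Of the 4 tested, 1 was called higher, SMTN (82.2 TPM in KCl and 71.8 TPM in control). Endothelial markers summed to 5.43 to 5.84 TPM in KCl and 4.31 to 5.02 TPM in control. The endothelial sum was mostly TEK (4.59 TPM in KCl and 4.13 TPM in control), the only 1 of 5 to reach 1 TPM. PECAM1 was called higher at a low level (0.77 TPM in KCl and 0.31 TPM in control). The part of these shifts in the results was not tested. In bulk RNA, fewer cells of a type and less RNA per cell cannot be told apart.

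The iron-responsive elements were looked up because they are the feature that ties 5 of the genes together at the RNA level. The transcripts of GENCODE release 29 were searched on the transcript strand for a C, then any 5 bases, then CAGTG and 1 further base, where the 5 bases before CAGTG can pair with the 5 bases after the loop. Pairs of G with T were accepted, and 1 unpaired base was allowed after the loop. A match in a UTR of a protein-coding transcript was found in FTH1, FTL, SLC40A1, TFRC and SLC11A2, 5 of the 10 genes. The same motif was found in a UTR in 2.31% of 19669 protein-coding genes. These 5 genes are known for this element, so the matches describe them and are no result of the KCl comparison. The 30-base windows are given below in the letters of the transcript (T for U), with the bulged C and the loop CAGTG in capitals, and with GRCh38 positions on the gene's strand.
FTH1, 5′ UTR, chr11:61967575-61967604, minus strand: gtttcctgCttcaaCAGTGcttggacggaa
FTL, 5′ UTR, chr19:48965333-48965362, plus strand: gtctcttgCttcaaCAGTGtttggacggaa
SLC40A1, 5′ UTR, chr2:189580662-189580691, minus strand: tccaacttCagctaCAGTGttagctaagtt
TFRC, 3′ UTR, chr3:196050980-196051009, minus strand: ataattatCggaagCAGTGccttccataat
TFRC, 3′ UTR, chr3:196050576-196050605, minus strand: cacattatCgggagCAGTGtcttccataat
TFRC, 3′ UTR, chr3:196050511-196050540, minus strand: gtctgtatCggagaCAGTGatctccatatg
TFRC, 3′ UTR, chr3:196050464-196050493, minus strand: gtaattatCgggaaCAGTGtttcccataat
SLC11A2, 3′ UTR, chr12:50988270-50988299, minus strand: gtagccatCagagcCAGTGtgtttctatgg
The windows of the 2 ferritin chains are identical at 27 of 30 bases, and TFRC has 4 separate matches. The SLC11A2 match has the unpaired base after the loop and was found in 5 of the 18 protein-coding transcripts of that gene. A match was found in only 1 of 5 protein-coding transcripts of SLC40A1. For TFRC it was 3 of 4, for FTH1 7 of 8 and for FTL 1 of 1. Expression was given per gene, so transcripts with and without a match were not separated. All 5 genes with a match passed the test in this comparison, while the other 5 did not, against 38.0% of all genes called. The direction was not shared: 4 were higher and SLC40A1 was lower. The split also depends on the processing. Over 16 alternative scalings, filters, tests and left-out libraries, FTH1 lost its call in 8 and SLC11A2 in 3. HMOX1, which has no match, gained a call in 4 of them and BLVRB in 1. This split was seen after the values were known and was not tested.

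TFRC codes for the receptor that takes up iron-loaded transferrin (gene ID 7037, GRCh38 chromosome 3, 196027183 to 196082189). It had 135.8, 132.9 and 130.2 CPM (counts scaled to the TMM-adjusted library total) in KCl, against 89.0, 86.6 and 81.6 CPM in control. Every KCl library was above every control library, and the gap between the groups was far wider than the spread within either. The means were 133 ± 2.81 CPM in KCl and 85.7 ± 3.77 CPM in control (SD, n = 3 each), which gave a log2 difference of 0.63 ± 0.05 (SE) with an edgeR adjusted p of 1.08e-10. Among the 10 genes this was the rise with the smallest p. Over the 16 alternatives the log2 fold change stayed between 0.54 and 0.66.

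SLC11A2 codes for the transporter that carries ferrous iron out of endosomes (gene ID 4891, chromosome 12, 50979401 to 51028566). It had 40.0, 41.5 and 39.9 CPM in KCl, against 34.4, 35.1 and 35.0 CPM in control, with no overlap. The log2 fold change was 0.22 ± 0.06 (SE, edgeR adjusted p = 0.00856). The difference is small, and the call was lost with library totals alone (edgeR adjusted p = 0.0544) and on log2(FPKM + 1) (limma adjusted p = 0.0668). The counts of SLC11A2 were not whole in 2 libraries, so some of its reads were shared out. The table gives 1 value per gene, so transcripts with and without the iron-responsive element were not separated.

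SLC40A1 codes for ferroportin, the only known cellular iron exporter (gene ID 30061, chromosome 2, 189560579 to 189583758). It was the least abundant of the 10 genes, with 45, 46 and 33 estimated reads in KCl, against 86, 84 and 56 in control. In scaled values it had 2.41, 2.48 and 1.77 CPM in KCl, against 4.38, 4.26 and 2.95 CPM in control. The groups did not overlap, but replicate 3 lay well below the other two libraries in both groups, and the lowest control value was close to the highest KCl value. The log2 fold change was -0.80 ± 0.22 (SE), with a 95% interval of -1.25 to -0.35 (edgeR adjusted p = 0.00532). With 1 library left out at a time it stayed between -0.96 and -0.66, and the adjusted p stayed at or under 0.0355. On scales with an added 1, which shrink the change of a scarce gene, it was -0.53 on log2(TPM + 1) and -0.40 on log2(FPKM + 1), both still called by limma. The low count makes this the least precise of the 10 estimates.

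FTL codes for the ferritin light chain, which helps to lay down the iron core (gene ID 2512, chromosome 19, 48965301 to 48966878). It had 1804, 1603 and 1853 CPM in KCl, against 1478, 1486 and 1459 CPM in control. All KCl libraries were higher, while KCl replicate 2 lay nearer to control than the others did. The means were 1754 ± 132 CPM in KCl and 1474 ± 13.9 CPM in control (SD, n = 3 each). The log2 fold change was 0.25 ± 0.04 (SE, edgeR adjusted p = 6.44e-05). It remained called under all 16 alternatives, between 0.18 and 0.31.

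FTH1 codes for the ferritin heavy chain, which oxidizes ferrous iron as it enters the shell (gene ID 2495, chromosome 11, 61959718 to 61967660). It had 2525, 2590 and 2600 CPM in KCl, against 2478, 2358 and 2359 CPM in control. The groups did not overlap in CPM, though the lowest KCl library lay close to the highest control library. The log2 fold change of 0.10 ± 0.04 (SE) passed (edgeR adjusted p = 0.0339). It no longer passed without KCl replicate 2 (adjusted p = 0.0584), KCl replicate 3 (0.107), control replicate 2 (0.116) or control replicate 3 (0.122), nor with library totals alone (0.409). On TPM the groups overlapped, with 4533, 4774 and 4724 TPM in KCl and 4637, 4360 and 4452 TPM in control.

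NCOA4 codes for the receptor that delivers ferritin to lysosomes to free its iron (gene ID 8031, chromosome 10, 46005088 to 46030714). It had 182.3, 184.5 and 185.3 CPM in KCl, against 182.9, 181.8 and 182.0 CPM in control. The groups overlapped, and the 95% interval of the log2 fold change ran from -0.07 to 0.10 (estimate 0.01, edgeR adjusted p = 0.811). Of the 10 genes it had the estimate nearest to 0.

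**Figure D2:**
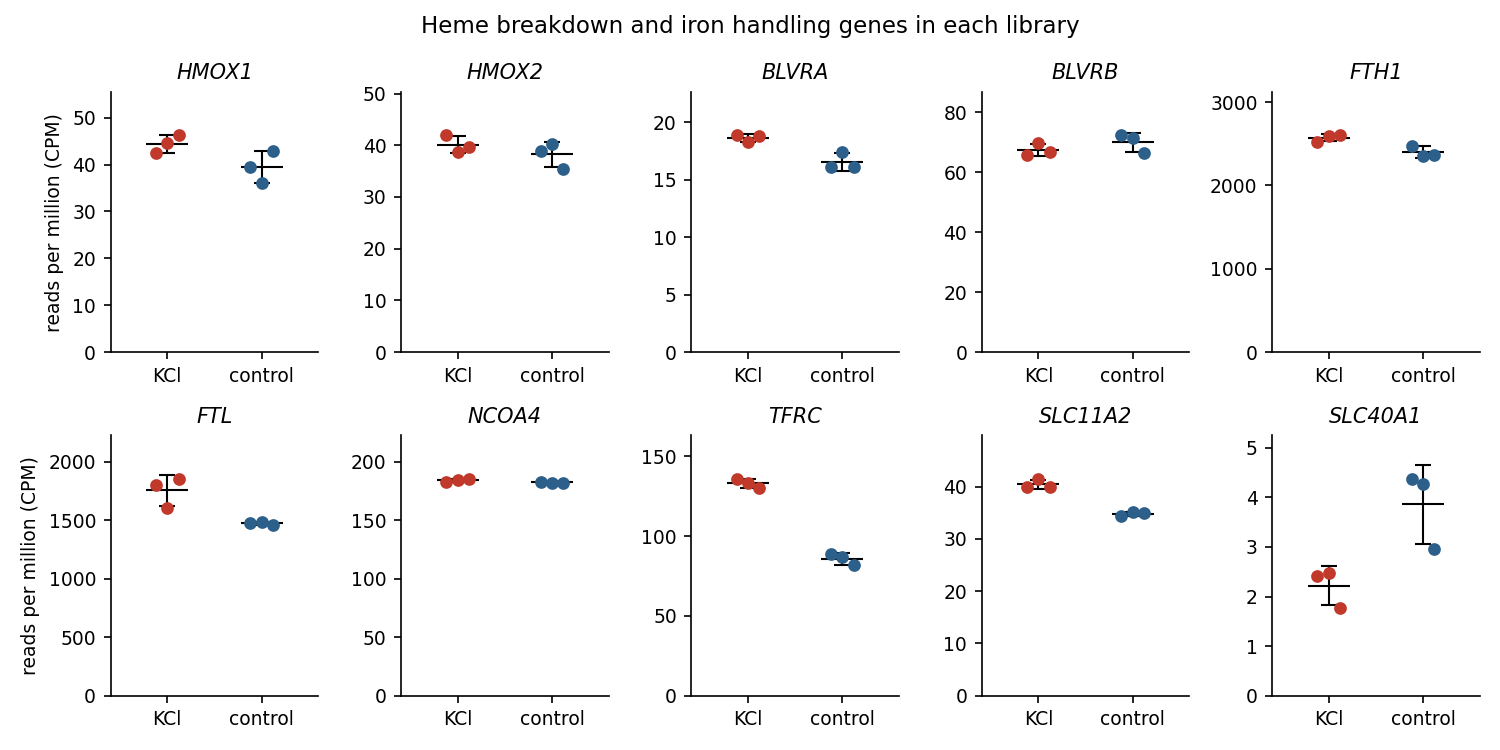
CPM (TMM-scaled, axes from 0, one scale per gene) of the 10 genes in the 3 KCl and the 3 control libraries. Points are libraries, bars are the mean and SD. KCl points lie above control points for BLVRA, FTH1, FTL, TFRC and SLC11A2 and below them for SLC40A1, and the groups overlap for HMOX1, HMOX2, BLVRB and NCOA4.

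HMOX1 codes for the inducible heme oxygenase and is among the best known NRF2 targets (gene ID 3162, chromosome 22, 35380361 to 35394214). It had 42.4, 44.7 and 46.2 CPM in KCl, against 39.5, 36.1 and 42.9 CPM in control. Control replicate 3 lay above KCl replicate 1, so the groups overlapped. The log2 fold change was 0.17 ± 0.07 (SE), with a 95% interval of 0.03 to 0.31 before adjustment, and did not pass over all genes (edgeR adjusted p = 0.0517). The outcome turned on single libraries: HMOX1 passed without control replicate 3 (log2 fold change 0.23, adjusted p = 0.0168) and without KCl replicate 1 (0.20, adjusted p = 0.0474), and the adjusted p ran from 0.0168 to 0.271 over the alternatives. Fold changes above 1.24 lay outside the interval.

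HMOX2 codes for the constitutive heme oxygenase (gene ID 3163, chromosome 16, 4474690 to 4510347). It had 41.9, 38.7 and 39.7 CPM in KCl, against 38.9, 40.3 and 35.5 CPM in control, with overlapping groups. The log2 fold change was 0.07, with a 95% interval of -0.07 to 0.21 (edgeR adjusted p = 0.446). HMOX2 overlaps NMRAL1 on the opposite strand, a gene at a like level (51.4 TPM in KCl and 57.4 TPM in control), and the sources used here do not tell whether reads were counted by strand.

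The biliverdin reductases also did not pass. BLVRA, which reduces the main product of heme breakdown (gene ID 644, chromosome 7, 43758680 to 43807342), had 18.8, 18.3 and 18.8 CPM in KCl, against 16.1, 17.4 and 16.1 CPM in control. Its groups did not overlap, but with a 95% interval of 0.00 to 0.35 around a log2 fold change of 0.17 it missed the threshold (edgeR adjusted p = 0.114). BLVRB, a flavin and biliverdin reductase (gene ID 645, chromosome 19, 40447765 to 40465840), had 65.7, 69.7 and 66.8 CPM in KCl, against 72.3, 71.3 and 66.3 CPM in control. The groups overlapped, and the log2 fold change was -0.05 (95% interval -0.17 to 0.06, edgeR adjusted p = 0.458).

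Levels per transcript length (TPM, as deposited) spanned more than 3 orders of magnitude. FTH1 averaged 4677 ± 127 TPM in KCl and 4483 ± 141 TPM in control, rank 8 and rank 9 of all genes, and FTL averaged 4610 ± 319 TPM in KCl and 3994 ± 14.8 TPM in control (SD, n = 3 each), rank 9 and rank 14. The 2 ferritin chains together made up 0.923%, 0.903% and 0.96% of all TPM in KCl, against 0.865%, 0.834% and 0.845% in control. The ratio of FTL to FTH1 was 1.04, 0.892 and 1.03 in KCl and 0.864, 0.913 and 0.897 in control, so that KCl replicate 2 fell within the control range. This ratio and this sum were chosen with the values known and were not tested.

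Below ferritin came BLVRB (181 ± 7.2 TPM in KCl and 193 ± 7.59 TPM in control) and NCOA4 (112 ± 2.84 TPM in KCl and 114 ± 1.19 TPM in control), and their libraries did not overlap with each other or with the next genes. HMOX1 and HMOX2 came next, at 61.7 ± 3.17 and 52.2 ± 1.76 TPM in KCl and at 56.3 ± 5.38 and 51.9 ± 2.99 TPM in control. The levels of these 2 genes overlapped in control and did not in KCl. TFRC changed its place in the order. In KCl it stood at 56.0 ± 1.29 TPM, between the heme oxygenases, while in control it stood at 37.0 ± 1.51 TPM, overlapping BLVRA at 35.2 ± 1.53 TPM. BLVRA had 38.7 ± 0.291 TPM in KCl. SLC11A2 (22.5 ± 0.973 TPM in KCl and 19.7 ± 0.126 TPM in control) and SLC40A1 (1.47 ± 0.287 TPM in KCl and 2.57 ± 0.533 TPM in control) were lowest.

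**Figure D3:**
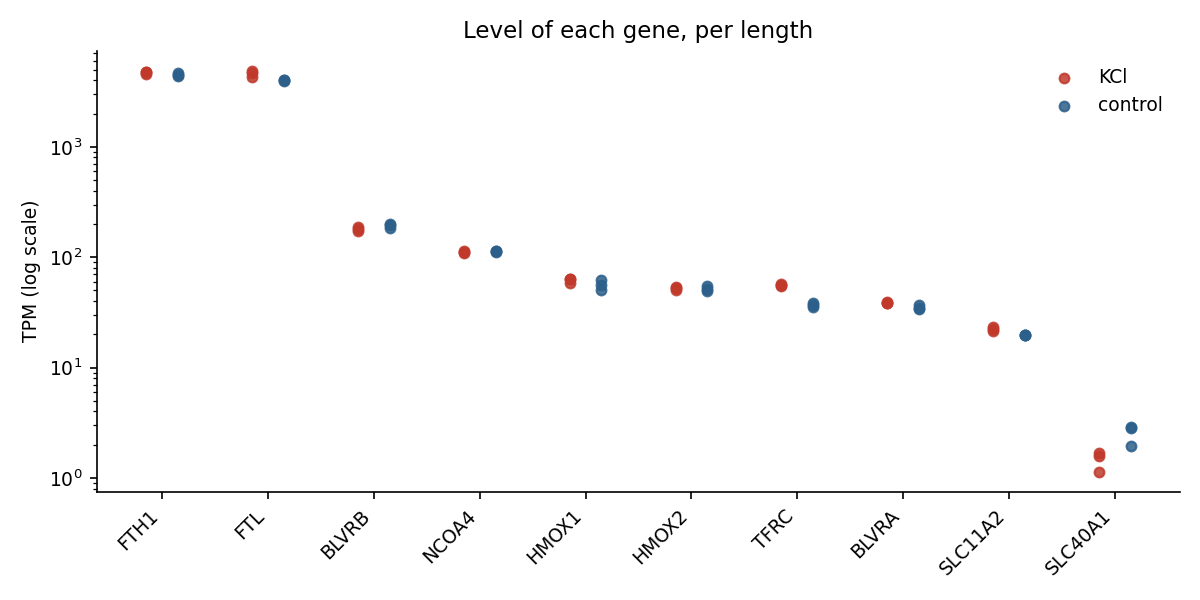
TPM of each gene (log axis) in the 3 KCl and 3 control libraries, ordered by the control mean. FTH1 and FTL stand at 3979 TPM and above, the other 8 genes lie far below them, and TFRC sits beside the heme oxygenases in KCl but beside BLVRA in control.

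The ferritin genes have many processed copies in the genome. GENCODE 29 names 25 copies of FTH1 and 16 of FTL, of which only FTH1P18 was among the genes analysed, with at most 0.26 TPM. The counts of FTH1 and FTL were whole in every library, so they show no sign of reads shared out in part. The sources used here do not otherwise tell how reads shared with such copies were assigned, so the ferritin levels are uncertain to that extent. FTH1 also overlaps BEST1 on the opposite strand, a gene at 4.63 TPM in KCl and 3.32 TPM in control. The ferritin relatives FTMT and FTHL17 were listed at 0 in every library.

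Lists of other heme and iron genes were examined in the same fit. Each gene counted once, 64 of 74 listed genes had enough reads, and of these 21 were higher and 8 lower after KCl (45.3% called, against 38.0% of all genes). Their median log2 fold change was 0.01. The lists are described by counts and medians, and differences between them were not tested. Over all genes tested, 20.1% were higher and 18.0% lower. Of 10 tested genes of iron uptake, reduction and mitochondrial import, 6 were higher and 1 lower (70.0% called), with a median of 0.23. Of 16 genes of mitochondrial iron-sulfur cluster assembly, 1 was higher and 4 lower (31.2% called, below the 38.0% of all genes). The median of that list was -0.08.

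**Figure D4:**
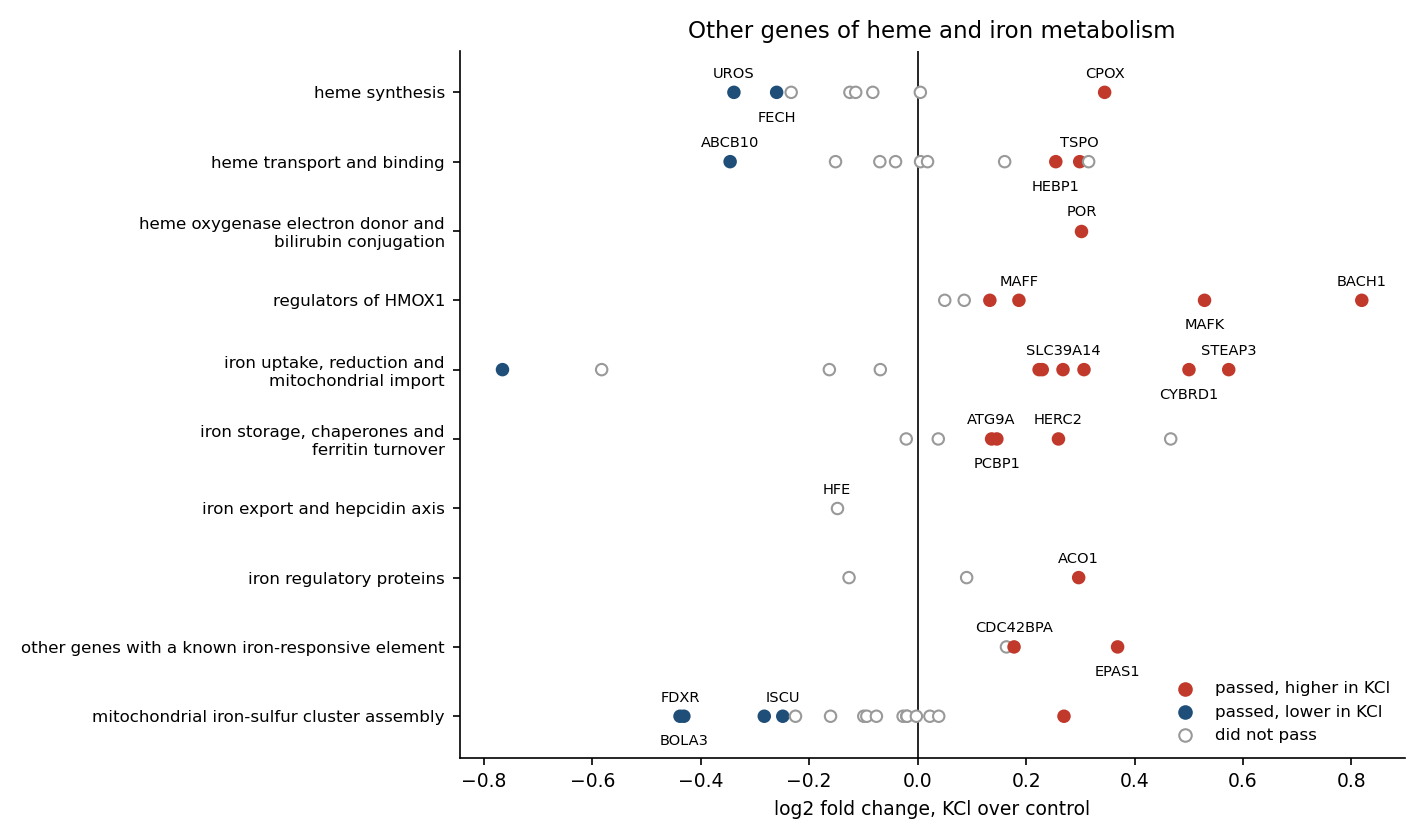
Log2 fold change, KCl over control, of the tested genes of each list of heme and iron metabolism. Filled points passed the test and open points did not. Genes of iron uptake lie mostly to the right of 0, with STEAP3 at 0.57 and CYBRD1 at 0.50. Genes of iron-sulfur cluster assembly lie mostly to the left, with FDXR at -0.44 and BOLA3 at -0.43. Of the uptake genes 3 of 10 did not pass, and of the cluster assembly genes 11 of 16.

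In the uptake list the ferric reductase genes STEAP3 and CYBRD1 changed most by p. STEAP3, which reduces transferrin-borne iron in endosomes, averaged 145.7 ± 1.99 CPM in KCl and 97.9 ± 3.06 CPM in control, a log2 difference of 0.57 ± 0.05 (SE) with an edgeR adjusted p of 2.34e-10. CYBRD1, a plasma membrane ferric reductase, averaged 356.9 ± 4.97 CPM in KCl and 252.3 ± 3.23 CPM in control (0.50 ± 0.04, edgeR adjusted p = 1.49e-10). SLC39A14, a carrier of zinc, manganese and iron, rose by 0.27 ± 0.04 to 455.3 CPM in KCl, against 378.1 CPM in control. The 1 lower gene, STEAP2, was named because it is the exception and after its values were seen. It is scarce, at 2.51 ± 0.52 CPM in KCl and 4.27 ± 0.788 CPM in control (-0.77 ± 0.21, edgeR adjusted p = 0.00484), and its call was lost on log2(TPM + 0.1) (limma adjusted p = 0.0542).

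Of the 3 genes of the iron regulatory protein system, ACO1 and IREB2 code for the proteins that bind the hairpins shown above, and FBXL5 acts on the second of these. ACO1, which codes for iron regulatory protein 1, an enzyme that becomes an RNA-binding protein when it lacks its iron-sulfur cluster, rose to 342.7 ± 5.38 CPM in KCl, against 278.9 ± 2.97 CPM in control (log2 fold change 0.30 ± 0.04, edgeR adjusted p = 9.99e-07). IREB2, the gene of iron regulatory protein 2, had 51.5 ± 0.673 CPM in KCl and 56.3 ± 3.68 CPM in control and did not pass (edgeR adjusted p = 0.1). It passed as lower without control replicate 3 (-0.17, edgeR adjusted p = 0.0413) and with library totals alone (-0.19, edgeR adjusted p = 0.0143). FBXL5, which targets iron regulatory protein 2 for breakdown when iron is plentiful, had 81.3 ± 0.864 CPM in KCl and 76.3 ± 4.15 CPM in control and did not pass (edgeR adjusted p = 0.181). These are RNA levels, and binding to the hairpins was not measured. Of the 3 tested other genes known for an iron-responsive element, 2 were higher and 0 lower, a list too short to set against the 38.0% of all genes called. EPAS1, a hypoxia-inducible factor gene, rose by 0.37 ± 0.04, and CDC42BPA, a kinase gene, rose by 0.18 ± 0.05. The CDC42BPA call was lost with limma on log2(TPM + 1) (adjusted p = 0.121), log2(TPM + 0.1) (0.119) and log2(FPKM + 1) (0.17).

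Of 6 genes that code for regulators of HMOX1, the factors that bind at it and the NRF2 inhibitor KEAP1, 4 were higher and 0 lower (66.7% called, against 38.0% of all genes). BACH1, the heme-sensing repressor of HMOX1 and ferritin genes, rose by 0.82 ± 0.06 on the log2 scale, to 90.0 ± 3.7 CPM in KCl against 51.0 ± 3.92 CPM in control (edgeR adjusted p = 4.3e-11). Its binding partners of the small MAF family, which NRF2 also uses, were MAFK (0.53 ± 0.06), MAFF (0.19 ± 0.04) and MAFG (0.13 ± 0.05), all higher. The MAFG call (edgeR adjusted p = 0.0417) was lost without KCl replicate 3 (0.205) or any 1 of control replicates 1 to 3 (0.102, 0.129 and 0.0586). It was lost in 10 of the 16 alternatives, among them DESeq2 (adjusted p = 0.0817) and library totals alone (edgeR adjusted p = 0.274). NFE2L2, the gene of NRF2, stood at 236.9 ± 12.1 CPM in KCl and 223.2 ± 6.8 CPM in control. Its difference of 0.09 on the log2 scale did not reach the threshold (edgeR adjusted p = 0.127) but passed without KCl replicate 1 (0.13, adjusted p = 0.0409), and KEAP1, whose product restrains NRF2, had 0.05 (edgeR adjusted p = 0.461). The sign of KEAP1 turned negative with library totals alone (-0.01) and on log2(FPKM + 1) (-0.02).

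Of 8 tested heme synthesis genes, 1 was higher and 2 lower, with a median of -0.12 (37.5% called, near the 38.0% of all genes). UROS, an enzyme of the cytosolic steps, was lower at 31.9 ± 0.69 CPM in KCl and 40.4 ± 1.5 CPM in control (-0.34 ± 0.07, edgeR adjusted p = 0.000204). FECH, ferrochelatase, which inserts iron in the last step, was lower at 31.4 ± 2.47 CPM in KCl and 37.6 ± 1.37 CPM in control (-0.26 ± 0.07). CPOX, the coproporphyrinogen oxidase gene, was higher at 24.3 ± 1.86 CPM in KCl and 19.1 ± 1.62 CPM in control (0.34 ± 0.09). ALAS2, the erythroid form of the first enzyme, was listed at 0 in every library.

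Of 10 genes of heme transport and binding, 2 were higher and 1 lower, near the 38.0% of all genes called. The translocator protein gene TSPO (0.30 ± 0.05) and the heme-binding protein gene HEBP1 (0.25 ± 0.06) rose, and ABCB10, which codes for a mitochondrial transporter, was lower (-0.35 ± 0.09). POR, the reductase that feeds electrons to heme oxygenase, rose by 0.30 ± 0.06, to 63.0 ± 3.8 CPM in KCl against 51.1 ± 3.72 CPM in control (edgeR adjusted p = 0.000469). Of 6 tested genes of iron storage, chaperones and ferritin turnover, 3 were higher and 0 lower, not far from the 38.0% of all genes called. The 3 were HERC2, whose product marks NCOA4 for breakdown (0.26 ± 0.06), the iron chaperone gene PCBP1 (0.15 ± 0.04) and the autophagy gene ATG9A (0.14 ± 0.05). The ATG9A call (edgeR adjusted p = 0.0231) was lost without KCl replicate 1 (0.0562), KCl replicate 3 (0.133) or control replicate 2 (0.135). It was lost in 7 of the 16 alternatives, among them library totals alone (edgeR adjusted p = 0.204). The PCBP1 call was lost with library totals alone (edgeR adjusted p = 0.0719) and on log2(FPKM + 1) (limma adjusted p = 0.103).

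In the list of iron-sulfur cluster assembly, the 4 lower genes were BOLA3 (-0.43 ± 0.09), FDXR (-0.44 ± 0.09), ISCU, the scaffold on which clusters are built (-0.25 ± 0.06), and NFU1 (-0.28 ± 0.07). The 1 higher gene was LYRM4 (0.27 ± 0.08), a partner of the cysteine desulfurase, which no longer passed with control replicate 1 left out (edgeR adjusted p = 0.0918). NFU1 and LYRM4 were named after their values were seen, to complete the counts. Of the iron export and hepcidin list, only HFE had enough reads to be tested, at 11.5 ± 0.424 CPM in KCl and 12.7 ± 1.6 CPM in control, below the threshold for a call (edgeR adjusted p = 0.293). HAMP and TMPRSS6 of that list were not analysed here.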

How the data were processed

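Messenger RNA of 6 AC16 libraries (3 KCl, 3 control) was used. Per the labels' protocols, the libraries were strand-specific and made for DNBSEQ. The submitters' processing notes name GRCh38.p12. The sources used here do not name the aligner or the counter. The authors deposited estimated counts per gene without normalization, of which 11.3% to 11.9% in a library were not whole. The authors also deposited TPM values, relative to gene length and library total, and FPKM values. Column codes were matched to groups through the deposited group means, recomputed here from the library columns to within 3.35e-10.

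Estimated counts were rounded to whole numbers, filtered with filterByExpr (minimum count 10, minimum total 15), scaled by TMM and fitted in R 4.3.3 with edgeR 4.0.16 (robust two-sided quasi-likelihood F test, Benjamini-Hochberg over 13044 genes, threshold 0.05). CPM are TMM-scaled. The SE is the log2 fold change divided by the square root of F, and 95% intervals use the fit's degrees of freedom. Alternatives used DESeq2 1.42.0, limma 3.58.1, other scalings and filters, and left out each library in turn. Within a group, each pair of libraries differed beyond sampling noise (chi-square per gene 3.05 to 4.53). For 27 genes the symbol was missing or had become a date and was restored from the gene ID.

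The 10 genes, the lists and the tests were chosen with earlier results of these data known. Named genes were all 10, up to 3 called genes of each list by smallest p (the 1 with the smallest p where no gene was called), and all genes coding for regulators of HMOX1, the iron regulatory proteins and FBXL5. Positions, gene copies and transcripts came from GENCODE 29 on GRCh38. A gene of the other lists is not reported here, and the lists' counts leave it out.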

Additional observations from a re-analysis of the deposited data

How the results depend on the processing

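Of the 10 genes, TFRC, FTL and SLC40A1 kept their direction and their call, and BLVRA its direction and the lack of one, under all 16 alternatives. The count of higher genes among the 10, 4 in the comparison as reported, was 2 with library totals alone, on log2(TPM + 0.1) and on log2(FPKM + 1), and the count of lower genes was 2 on log2(FPKM + 1). Library totals alone gave 0.0392 for FTH1 and 0.16 for SLC11A2, both no longer called, and turned the sign of NCOA4 (-0.0474) and KEAP1 (-0.0116). On log2(TPM + 1) FTH1 was at 0.0612 (not called) and NCOA4 at -0.0223 (sign turned). On log2(TPM + 0.1) FTH1 was at 0.0612 and SLC11A2 at 0.19 (neither called), and NCOA4 at -0.0225. On log2(FPKM + 1) FTH1 was at 0.032 and SLC11A2 at 0.14 (neither called), BLVRB at -0.12 (now called), and HMOX2 (-0.0191), NCOA4 (-0.0507) and KEAP1 (-0.0157) had their sign turned. HMOX1 was called without the low count filter (0.17). These scalings moved the median of all genes to -0.0662 (library totals), -0.0368 (TPM + 1), -0.0421 (TPM + 0.1) and -0.0554 (FPKM + 1), and the cause was not tested further. With 1 library left out, FTH1 ran from 0.0858 to 0.1224, HMOX1 from 0.11 to 0.23 and SLC11A2 from 0.20 to 0.23, with 3 to 5 of the 10 called higher and 1 lower. Over all genes, 1594 were higher on log2(FPKM + 1), against 2621 as reported. The 8 lower genes of the other heme and iron lists were 14 with library totals and 14 on log2(FPKM + 1). For the other named genes, 466 of 496 values kept direction and call, 25 lost the call, 3 gained it and 2 changed sign. Deviations of same-numbered libraries correlated at -0.00388, -0.00598 and 0.0479, and those of the other pairs at -0.0589 to 0.0679. Not every library correlated best with its own number. Such small correlations over all genes cannot tell whether same-numbered libraries belong together. With the replicate block, 2715 genes were higher and 2425 lower, and HMOX1 passed (0.17, edgeR adjusted p = 0.0333), making 5 of the 10 higher. Depth limits mainly SLC40A1, which had 33 to 86 estimated reads in a library.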

Other observations

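The ratio of the uptake gene TFRC to the export gene SLC40A1 in TPM was 35.6, 34 and 47.9 in KCl, against 13.2, 13.0 and 18.1 in control. The ratio was formed after the values were seen and was not tested, and SLC40A1 had low counts. The ratio of HMOX1 to HMOX2 in TPM was 1.09, 1.25 and 1.21 in KCl, against 1.09, 0.923 and 1.25 in control, with overlap. The ratio of BLVRB to BLVRA in TPM was 4.51, 4.91 and 4.61 in KCl, against 5.83, 5.27 and 5.4 in control, without overlap, though neither gene passed the test.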
